A study of Rattus norvegicus with 6 samples.

Results

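The liver makes most of the proteins of 2 proteolytic cascades of blood plasma, complement and clotting, together with the serpins that restrain them. The genes described here are 42 that encode these proteins, a fixed list of gene symbols drawn up with earlier results of these data known. No cutoff on measured values was used to choose them. A probe was named for 37 of the 42, and all 37 passed the filter on dim probes, out of 11235 named genes tested and 15645 named genes with a probe. C5, C8g, F11, F5 and F13b had no named probe and were not analysed here.

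Liver total RNA was measured on 1-colour arrays, 1 array per rat, in 3 male Sprague-Dawley (Crl:CD(SD)) rats given TBBC (a 4,4'-Thiobis compound of 6-tert-Butyl-m-Cresol, used as an antioxidant in rubber and plastics) at 300 mg/kg/day and in 3 male Sprague-Dawley rats given corn oil (vehicle). Rats of both groups were bought at 5 weeks of age and shared the basal diet. The labels give the time of dosing as 9 weeks in one place and the time of measurement as 28 days in another. Each array stands for a different rat, so replicate error here is the spread between rats. All TBBC arrays lay on one slide and scan and all vehicle arrays on another, so slide or scan and treatment cannot be told apart.

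Complement is a chain of plasma proteases and pore-forming proteins that tags and lyses microbes. It is started by antibody (C1r, C1s) or by sugar-binding lectins (Mbl1, Mbl2 and their proteases), converges on C3 and ends in the membrane attack complex. Clotting runs from contact activation (F12, Klkb1, Kng1) or tissue factor (F7) to thrombin (F2), which cuts fibrinogen into fibrin. Antithrombin, heparin cofactor II, protein C and protein S limit it, and plasmin dissolves the clot. Hepatocytes are the main source of nearly all of these proteins, and several of them, fibrinogen and C3 among them, are known to increase in the acute phase response.

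Values are log2 signal relative to the array's 75th percentile, so 0 is the 75th percentile of that array's probes, and a difference is TBBC minus vehicle on that log2 scale with its standard error. The 75th percentile itself was a signal of 616.1 to 638.2 on the TBBC arrays and of 465.2 to 598.1 on the vehicle arrays, with the lowest value in vehicle 2. Between 36919 and 39386 of 61537 probes per array were well above background. In the TBBC livers 10 of 10 hepatocyte markers were measured above background, with a summed signal of 4257 to 4372 times the 75th percentile, against 4788 to 5360 in the vehicle livers. Ahsg (fetuin-A) fell by 0.83 ± 0.12 (limma adjusted p = 0.0292), while the other 9 did not pass. Ttr (-0.028 ± 0.11) and Tf (-0.29 ± 0.12) were the hepatocyte markers with the highest signal. Of the 10, 4 were positive and 6 negative. The widest difference was that of Apoa1 (-0.9996 ± 0.19, no overlap), chosen for mention after its values were seen. The groups did not overlap for 2 higher and 4 lower markers, where 12.3% of all features were higher and 18.8% lower. At a limma unadjusted p under 0.05, 2 were higher and 3 lower, against 9.48% and 13.5% of all features. The summed signals did not overlap and were lower in TBBC livers.

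Most of the cascade genes lay close to no difference. Of the 37 measured, 1 passed the limma test: Serpind1, which encodes the thrombin inhibitor heparin cofactor II, was 1.46-fold lower in TBBC livers. That is 2.70% of the 37, and 3.08% of all 29326 features passed the same test (492 higher, 410 lower, or 1.68% and 1.40%). The split over all features was 746 higher and 306 lower with each array centred on its median, and 569 and 130 when arrays were scaled on spike-in probes. At an unadjusted p under 0.05, 8 of the 37 (21.6%) differed, against 23.0% of all features. Of the 8, 4 were higher and 4 lower, where the background was 9.48% higher and 13.5% lower. Among the 11235 named genes tested, 1282 were higher and 1225 lower at that unadjusted p. The groups did not overlap for 10 of the 37 (27.0%), against 31.1% of all features. Of the 10, 5 were higher (C1s, C8a, C9, Pros1, Serpina10) and 5 lower (F12, Klkb1, Serpina1, Serpind1, Vtn), where 12.3% of all features were higher and 18.8% lower. Of the named genes tested, 1739 were higher and 1763 lower without overlap. By none of these 3 counts was the share among the cascade genes above that over all features.

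Differences ranged between -1.19 (Klkb1) and 0.94 (Kng1). They were smaller than 0.25 either way for 25 of the 37 genes and larger than 0.5 for 5, namely Klkb1, Kng1, Serpina10, Serpind1 and C9. The median size without regard to sign was 0.15, against 0.23 over all features and 0.21 over the 2108 other features with a mean of at least 5. The median difference was -0.043 with 15 positive and 22 negative, and over all features it was -0.062. Over all named genes the median was -0.019, with 47.5% positive, against 40.5% of the cascade genes. The cascade median thus lay above that of all features and below that of the named genes. Scaling moved the cascade genes and all features together. Centring each array on its median gave 0.053 for the cascade genes and 0.034 for all features, and spike-in scaling gave 0.18 and 0.16. Relative to all features the cascade genes lay at 0.019, a value that scaling by 1 constant per array cannot change. It was 0.0019 with quantile normalization and 0.092 with normexp background correction. Without vehicle 2 their median was 0.056, with 22 positive and 15 negative, or 0.11 relative to all features. Without vehicle 3 it was -0.11, with 13 positive and 24 negative, or -0.040 relative to all features. In whole liver RNA, fewer cells of a type and less RNA per cell cannot be told apart.

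**Figure D1:**
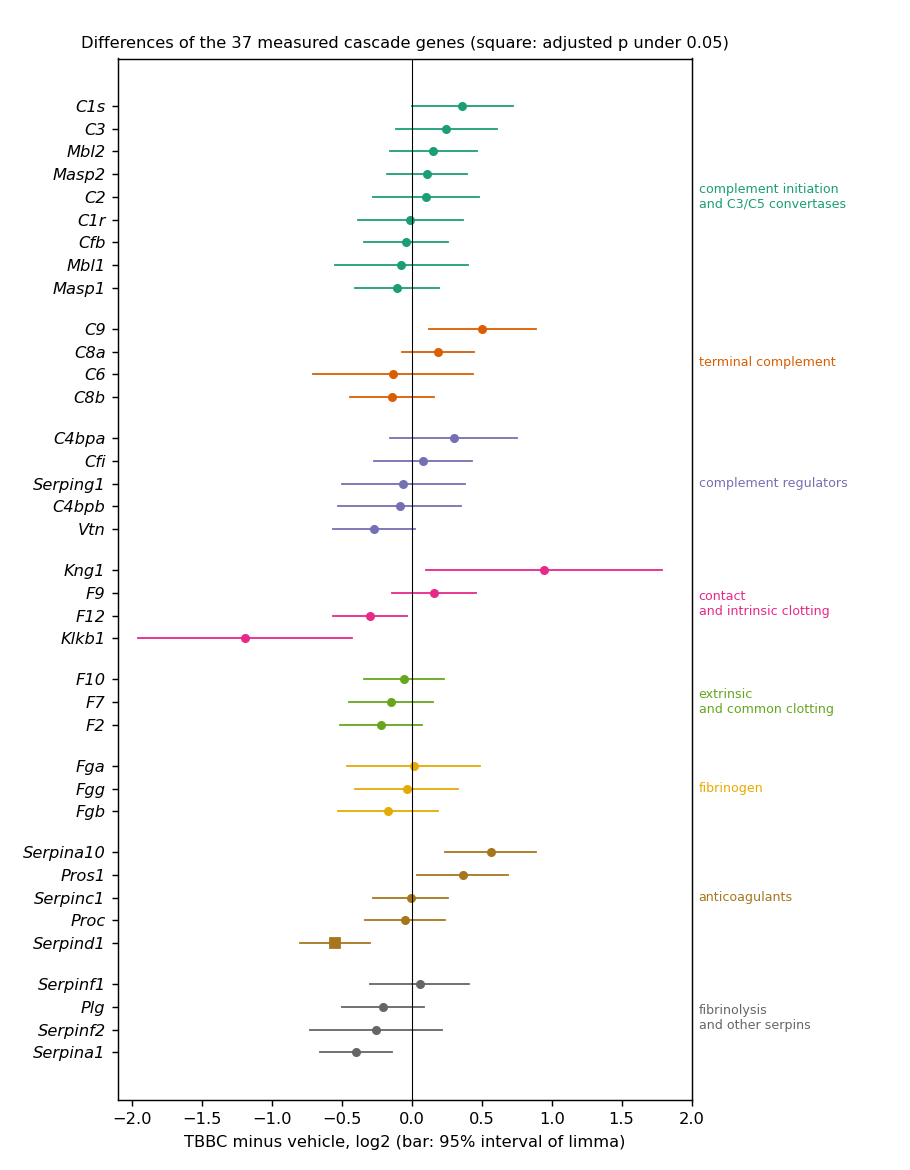
Difference of each measured cascade gene, TBBC minus vehicle on the log2 scale, grouped by role from complement initiation at the top to fibrinolysis at the bottom. Points are limma estimates with 95% intervals, and the square marks Serpind1 (-0.55), the 1 gene past the adjusted threshold. Klkb1 (-1.19) and Kng1 (0.94) lie farthest from 0 and have the widest intervals.

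The anticoagulants did not move together. Serpind1 read 5.28, 5.39 and 5.43 in TBBC livers, against 5.96, 5.93 and 5.86 in vehicle livers. Every TBBC value lay below every vehicle value, and the gap between the groups was wider than the spread within either. The difference was -0.55 ± 0.10 (limma, adjusted p = 0.0483), with 1 probe for the gene. It was negative in all 19 settings, between -0.58 and -0.33, but passed in 8 of them. Several settings cannot change this difference or its sign, as given in the closing section. The call ended with spike-in scaling (-0.33, adjusted p = 0.365), median centring (adjusted p = 0.0790), another background correction (adjusted p = 0.0586) or no filter on dim probes (adjusted p = 0.133). It also ended without any 1 of the 6 arrays (adjusted p between 0.0855 and 0.148).

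Serpina10 encodes the protein Z-dependent protease inhibitor, which inactivates factor Xa. Its values were 6.87, 7.01 and 6.70 in TBBC livers, against 6.28, 6.45 and 6.15 in vehicle livers, again with no overlap but in the opposite direction to Serpind1. The difference of 0.56 ± 0.14 did not pass (adjusted p = 0.0816), and a second probe gave 0.61. It passed with median centring (adjusted p = 0.0489) and with a trended, robust prior variance (adjusted p = 0.0447). Pros1 encodes protein S, the cofactor of activated protein C. It read 2.40, 2.30 and 2.47 in TBBC livers, against 2.00, 2.24 and 1.85 in vehicle livers, with a difference of 0.36 ± 0.13 (adjusted p = 0.184) and 0.49 by its second probe. Its groups did not overlap, though TBBC 2 lay only slightly above vehicle 2.

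The other 2 anticoagulants lay near 0 by their brightest probes. Serpinc1 encodes antithrombin, the main plasma inhibitor of thrombin and factor Xa. It read 9.42, 9.38 and 9.30 in TBBC livers, against 9.33, 9.50 and 9.29 in vehicle livers, a difference of -0.0074 ± 0.11 (adjusted p = 0.975). Its 95% interval ran from -0.28 to 0.26. A second, dimmer probe of Serpinc1 gave 0.36 ± 0.12 without overlap. That probe read 6.35, 6.56 and 6.48 in TBBC livers, against 6.25, 6.05 and 6.01 in vehicle livers, so the probes differ on this gene. Proc, which encodes protein C, the protease that inactivates clotting cofactors, differed by -0.050 ± 0.12 with an interval from -0.34 to 0.24.

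**Figure D2:**
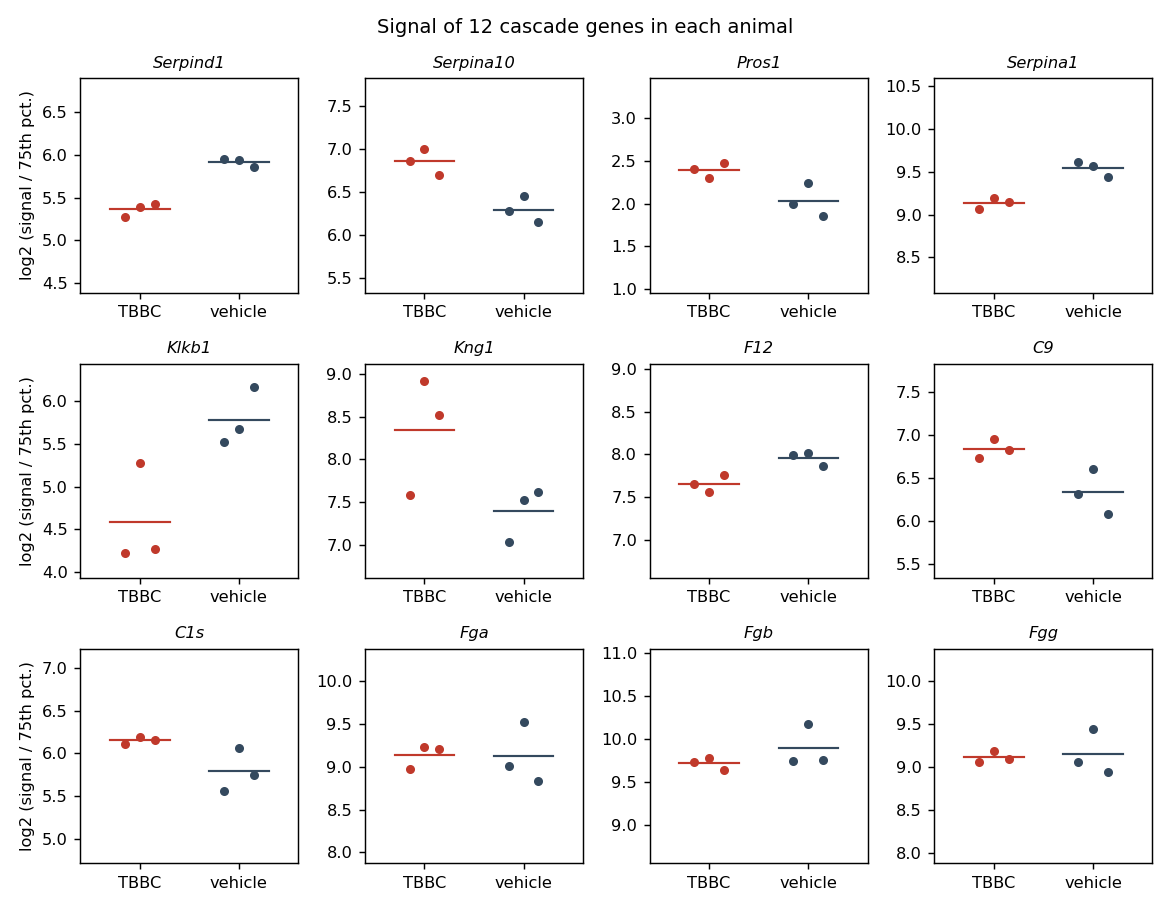
Signal of 12 cascade genes in each rat, as log2 of the signal over the array's 75th percentile, with TBBC on the left and vehicle on the right of each panel. Points are rats in the order of their replicate numbers, lines are group means (n = 3 each), and every panel spans the same log2 range. Serpind1, Serpina1, Klkb1 and F12 show TBBC below vehicle without overlap, Serpina10, Pros1, C9 and C1s show it above, and the 3 fibrinogen genes overlap.

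The contact system held the widest differences, in opposite directions, and none passed. Klkb1 encodes plasma prekallikrein, the protease that activates factor XII and releases bradykinin. Its values were 4.22, 5.27 and 4.27 in TBBC livers, against 5.52, 5.67 and 6.16 in vehicle livers. TBBC 1 and TBBC 3 lay more than a log2 unit below every vehicle rat, whereas TBBC 2 lay nearer to the lowest of them. The difference was -1.19 ± 0.32, or 2.29-fold lower (adjusted p = 0.102, 95% interval from -1.96 to -0.43). It was negative in all 19 settings (-1.54 to -0.97), and its adjusted p ranged between 0.0644 and 0.225. As for Serpind1, several of these settings cannot turn the sign.

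Kng1 encodes a kininogen, a protein that in humans carries prekallikrein and is cut by it to give bradykinin. It read 7.58, 8.92 and 8.52 in TBBC livers, against 7.04, 7.52 and 7.62 in vehicle livers. TBBC 2 and TBBC 3 lay above all vehicle rats, and TBBC 1 lay within their range. The difference was 0.94 ± 0.35, or 1.92-fold higher (adjusted p = 0.184), and a second probe gave 0.89. The adjusted p was 0.0729 without TBBC 1 (difference 1.32) and 0.365 without TBBC 2 (difference 0.66). Kng2, a close relative of Kng1, gave 0.75 and 0.89 by its 2 probes, and Kng2l1, another relative, gave 0.094. Which of these transcripts each probe binds was not tested, so the Kng1 value is uncertain. Kng2 and Kng2l1 were chosen for mention after their values were seen.

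F12, which encodes factor XII, the first protease of the contact pathway, read 7.65, 7.57 and 7.76 in TBBC livers, against 7.998, 8.02 and 7.87 in vehicle livers. The groups did not overlap, but the difference of -0.30 ± 0.11 did not pass (adjusted p = 0.181), and a second probe gave -0.026. F9, which encodes factor IX, the protease that activates factor X, differed by 0.16 ± 0.13 and its groups overlapped. At an unadjusted p under 0.05, Kng1 was higher and F12 and Klkb1 were lower among the 4 contact and intrinsic genes tested.

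The promoters of Klkb1 and Kng1 are shown because these genes had the largest differences of either sign. Each sequence is the 250 bases upstream of the annotated start in RefSeq GRCr8, 5′ to 3′ on the gene's strand, at chr16:53690976-53691225 on the plus strand for Klkb1 and chr11:91340149-91340398 on the minus strand for Kng1. Capitals mark matches on either strand to 3 motifs known from liver genes: a half-site of hepatocyte nuclear factor 1 (GTTAAT), a C/EBP motif (TTGCNNAA) and the interleukin 6 element (CTGGGAA). None of the matches overlapped another. Klkb1 held 1 C/EBP match, and Kng1 held 1 C/EBP match and 1 interleukin 6 element.
Klkb1: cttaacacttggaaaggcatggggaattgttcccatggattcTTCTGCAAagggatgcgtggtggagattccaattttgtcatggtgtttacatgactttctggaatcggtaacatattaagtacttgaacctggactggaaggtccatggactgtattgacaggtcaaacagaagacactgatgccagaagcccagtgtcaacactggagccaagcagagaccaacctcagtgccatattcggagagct
Kng1: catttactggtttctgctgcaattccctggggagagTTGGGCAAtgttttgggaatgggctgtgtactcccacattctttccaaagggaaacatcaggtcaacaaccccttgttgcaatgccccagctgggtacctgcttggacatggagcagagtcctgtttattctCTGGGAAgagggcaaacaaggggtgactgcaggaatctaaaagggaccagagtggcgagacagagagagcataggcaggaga

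Among 33 cascade genes with a promoter sequence, 10 (30.3%) held the HNF1 half-site, 12 (36.4%) the C/EBP motif and 10 (30.3%) the interleukin 6 element. The shares among all 33469 promoters of the same length were 6.5%, 9.2% and 9.6%. These sets are unlike. The 33469 count every annotated start, of any gene, whereas a cascade gene counts by its outermost start only. They were not matched for liver expression or base composition, so the gap between the shares was not tested. The windows of Serpina1, Pros1 and F12 held none of the 3. A match is a string of letters and not a shown binding site, and its absence says only that these letters are not in the window.

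The 3 fibrinogen genes, which lie next to each other in the rat genome and encode the chains of one protein, gave nearly equal values in both groups. Fga read 8.97, 9.23 and 9.20 in TBBC livers, against 9.01, 9.52 and 8.83 in vehicle livers (0.011 ± 0.20). Fgg read 9.06, 9.18 and 9.09 in TBBC livers, against 9.06, 9.44 and 8.94 in vehicle livers (-0.037 ± 0.15). Fgb read 9.73, 9.78 and 9.64 in TBBC livers, against 9.75, 10.17 and 9.75 in vehicle livers (-0.17 ± 0.15). For each of the 3 chains vehicle 2 was the highest of the 6 rats, and the TBBC rats lay within the vehicle range except that TBBC 1 and TBBC 3 lay below it for Fgb. The 95% intervals ran from -0.46 to 0.49 for Fga, from -0.41 to 0.33 for Fgg and from -0.53 to 0.18 for Fgb. With the scaling as reported, a rise beyond 0.49 on the log2 scale thus lay outside all 3. Spike-in scaling gave 0.23 ± 0.18 for Fga, 0.18 ± 0.16 for Fgg and 0.047 ± 0.16 for Fgb. The 3 differences lay between -0.031 and 0.21 without vehicle 2, and between -0.24 and -0.13 without vehicle 3. The limit of 0.49 does not hold with spike-in scaling, where a 95% interval of Fga from its standard error reaches past it. Whether it holds without vehicle 2 or without vehicle 3 was not tested. As reported, none of the 3 genes passed with limma, at an unadjusted p under 0.05 either.

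Their promoters are printed because the 3 genes lie together and had vehicle 2 as their highest rat in common. The second trait is not particular to fibrinogen, since vehicle 2 was the highest vehicle rat for 27 of the 37 cascade genes. The promoters were taken in the same way, with the same motifs in capitals. They lie at chr2:170671919-170672168 on the plus strand for Fga, chr2:170700876-170701125 on the minus strand for Fgb and chr2:170652833-170653082 on the plus strand for Fgg. Fga held 1 HNF1 half-site and 1 C/EBP match, Fgb held 1 match to each motif, and Fgg held 2 interleukin 6 elements.
Fga: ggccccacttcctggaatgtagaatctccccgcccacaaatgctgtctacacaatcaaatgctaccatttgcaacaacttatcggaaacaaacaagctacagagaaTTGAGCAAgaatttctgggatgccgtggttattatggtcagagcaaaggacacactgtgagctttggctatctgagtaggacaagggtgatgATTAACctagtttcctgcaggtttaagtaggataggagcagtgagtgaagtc
Fgb: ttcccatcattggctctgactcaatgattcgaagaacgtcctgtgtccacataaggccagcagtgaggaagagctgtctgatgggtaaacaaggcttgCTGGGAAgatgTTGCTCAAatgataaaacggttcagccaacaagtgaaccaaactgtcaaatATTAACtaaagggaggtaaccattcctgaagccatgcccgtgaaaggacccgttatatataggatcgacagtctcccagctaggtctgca
Fgg: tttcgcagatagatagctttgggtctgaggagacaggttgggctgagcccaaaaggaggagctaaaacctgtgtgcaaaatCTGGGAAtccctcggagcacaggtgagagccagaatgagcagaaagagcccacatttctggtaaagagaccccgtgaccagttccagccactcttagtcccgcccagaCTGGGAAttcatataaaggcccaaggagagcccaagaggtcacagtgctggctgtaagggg

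In the extrinsic and common pathway none of 3 genes passed with limma, nor at an unadjusted p under 0.05. F2, which encodes prothrombin, read 9.12, 9.28 and 9.17 in TBBC livers, against 9.40, 9.57 and 9.27 in vehicle livers, a difference of -0.22 ± 0.12 (adjusted p = 0.323). Only TBBC 2 reached into the vehicle range. F7, the protease that pairs with tissue factor, differed by -0.15 ± 0.13, and F10, the protease that cuts prothrombin, by -0.058 ± 0.12. With spike-in scaling F7 and F10 were positive at 0.071 and 0.16 and F2 was at -0.0017.

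Fibrinolysis and the remaining serpins gave no gene past the limma threshold among 4. Serpina1 encodes alpha1-antitrypsin, the main plasma inhibitor of neutrophil elastase. Its values were 9.07, 9.20 and 9.15 in TBBC livers, against 9.61, 9.57 and 9.44 in vehicle livers, with no overlap. The difference was -0.40 ± 0.11, or 1.32-fold lower (adjusted p = 0.101). It passed with a trended, robust prior variance (adjusted p = 0.0466) and was -0.18 with spike-in scaling (adjusted p = 0.614). Serpina1 was the 1 gene of this group at an unadjusted p under 0.05.

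Plg, the precursor of plasmin, differed by -0.21 ± 0.12 with its brightest probe and by 0.13 with the other. Serpinf2, which encodes the plasmin inhibitor alpha2-antiplasmin, differed by -0.26 ± 0.20, and the vehicle rats ranged between 5.66 and 6.39. Serpinf1, which encodes pigment epithelium-derived factor, a serpin that does not inhibit proteases, differed by 0.054 ± 0.15. In the gene order of GRCr8 Serpinf1 and Serpinf2 are neighbours, and their groups overlapped in both cases.

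In the terminal pathway of complement, C9, the protein that polymerises into the membrane pore, had the largest difference. It read 6.73, 6.95 and 6.83 in TBBC livers, against 6.31, 6.60 and 6.08 in vehicle livers, so that every TBBC rat lay above every vehicle rat. The difference was 0.50 ± 0.16, or 1.42-fold higher (adjusted p = 0.137). With background correction by normexp it passed (adjusted p = 0.0389). C8a, a chain of the complex that C9 joins, read 6.14, 6.19 and 6.14 in TBBC livers, against 5.95, 6.09 and 5.87 in vehicle livers. Its difference was 0.18 ± 0.11 with no overlap, but 1 of its 3 probes gave -0.31. C8b, its partner chain and neighbour in the genome, differed by -0.14 ± 0.12, and C6 by -0.14 ± 0.24. None of the 4 terminal genes passed with limma, and C9 alone had an unadjusted p under 0.05.

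The proteins that start complement and form its convertases gave no difference past the limma threshold among 9 genes, nor at an unadjusted p under 0.05. That holds for the brightest probe of each gene in the fit as reported, with C1s at the edge (limma, unadjusted p = 0.0503). With every probe fitted on its own by limma, this C1s probe fell just under 0.05 (unadjusted p = 0.0497). Dimmer probes of C1s (0.42, unadjusted p = 0.0229) and Masp1 (-0.44, unadjusted p = 0.0398) fell under 0.05 too. The other dimmer probes of the 9 genes did not. C1s, the protease that cuts C4 and C2, read 6.11, 6.19 and 6.16 in TBBC livers, against 5.56, 6.07 and 5.75 in vehicle livers. The groups did not overlap because the TBBC rats lay close together just above vehicle 2, and the difference was 0.36 ± 0.15 (adjusted p = 0.218; 0.42 by a second probe). C1r, which activates C1s and lies beside it in the genome, differed by -0.012 ± 0.16. C3, the protein on which all complement pathways converge, read 10.02, 10.18 and 10.17 in TBBC livers, against 9.85, 10.14 and 9.65 in vehicle livers (0.25 ± 0.15).

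For the lectin pathway, the sugar-binding proteins Mbl2 and Mbl1 differed by 0.15 ± 0.13 and -0.075 ± 0.20. Their proteases Masp2 and Masp1 differed by 0.11 ± 0.12 and -0.11 ± 0.13. C2 and Cfb, the protease subunits of the convertases, differed by 0.097 ± 0.16 and -0.043 ± 0.13. All 6 had overlapping groups. With spike-in scaling all 9 genes of complement initiation were positive, between 0.11 and 0.58, beside a median of 0.16 over all features.

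The complement regulators held no gene past the threshold among 5 with limma, nor at an unadjusted p under 0.05. Vtn encodes vitronectin, which blocks insertion of the terminal complex. It read 8.89, 8.81 and 8.80 in TBBC livers, against 9.15, 9.24 and 8.92 in vehicle livers, a difference of -0.27 ± 0.12 with no overlap (adjusted p = 0.246). C4bpa and C4bpb, the chains of C4b-binding protein, differed by 0.30 ± 0.19 and -0.089 ± 0.18. Cfi, the protease that inactivates C3b, differed by 0.080 ± 0.15. Serping1, the inhibitor of C1r, C1s, kallikrein and factor XIIa, differed by -0.062 ± 0.18.

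Rats of the same group differed in the cascade genes, and vehicle 2 was high in most of them. It was the highest of the 3 vehicle rats for 27 of the 37 genes (73.0%) and the lowest for 1, and vehicle 3 was the lowest for 27. Over all features vehicle 2 was the highest of the vehicle rats for 40.3%, over the 2108 other features with a mean of at least 5 for 41.7%, and among the hepatocyte markers for 3 of 10. Vehicle 3 was the lowest for 40.9% of all features, 54.4% of the features with a mean of at least 5 and 6 of 10 hepatocyte markers. Of the TBBC rats, TBBC 2 was the highest for 23 of the 37 (62.2%), against 38.5% of all features and 60.6% of those with a mean of at least 5. TBBC 1 was the lowest for 25 of the 37 (67.6%), against 35.4% and 39.8%. The hepatocyte markers had TBBC 2 highest for 5 of 10 and TBBC 1 lowest for 5 of 10. Vehicle 2 was also the array with the lowest 75th percentile, and the part of this in the ranks was not tested.

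**Figure D3:**
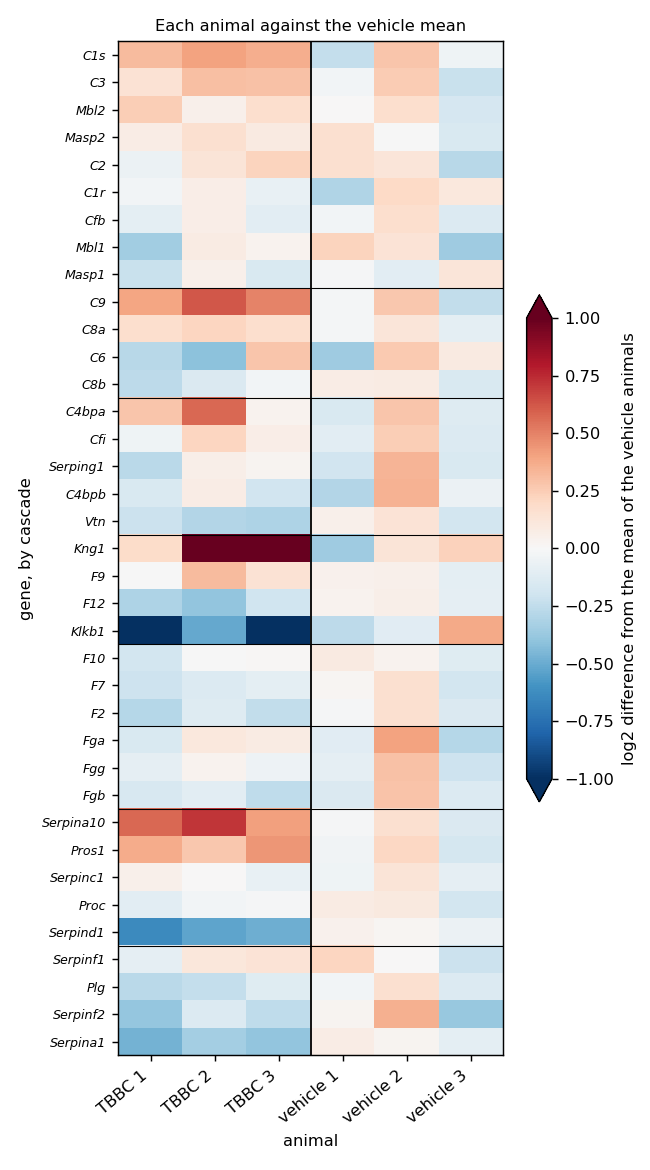
Each rat's log2 difference from the mean of the vehicle rats for the 37 measured cascade genes, ordered by role, with TBBC rats in the 3 left columns and vehicle rats in the 3 right ones. The colour scale stops at 1 either way, which TBBC rats exceed for Kng1 and Klkb1. The column of vehicle 2 is mostly above 0 and that of vehicle 3 mostly below: vehicle 2 was the highest vehicle rat for 27 genes (40.3% of all features) and vehicle 3 the lowest for 27 (40.9% of all features).

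TBBC rats lay closer together than vehicle rats for most of these genes. The SD over 3 rats was smaller in TBBC than in vehicle for 28 of the 37 (75.7%), against 54.4% of all features, 47.8% of the other features with a mean of at least 5 and 7 of 10 hepatocyte markers. Its median was 0.098 in TBBC and 0.19 in vehicle, and over all features 0.16 and 0.19. Kng1 had the largest SD in TBBC (0.68) and Serpinf2 the largest in vehicle (0.37). No test was made of these spreads.

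Several probes measured 20 of the genes, which gives a limited check within the arrays. All probes of a gene had the same sign for 11 genes and both signs for 9, and the range between them was under 0.25 for 14. The same counts over other genes with several probes were not made. C8a had the widest range (-0.31 to 0.22), followed by Serpinc1 and Plg. The second probes of Kng1, Serpina10, Pros1 and C1s differed from the first by between 0.050 and 0.13 on the log2 scale. Serpind1, Klkb1, Serpina1, C9 and Vtn had 1 probe each, so they had no such check.

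**Figure D4:**
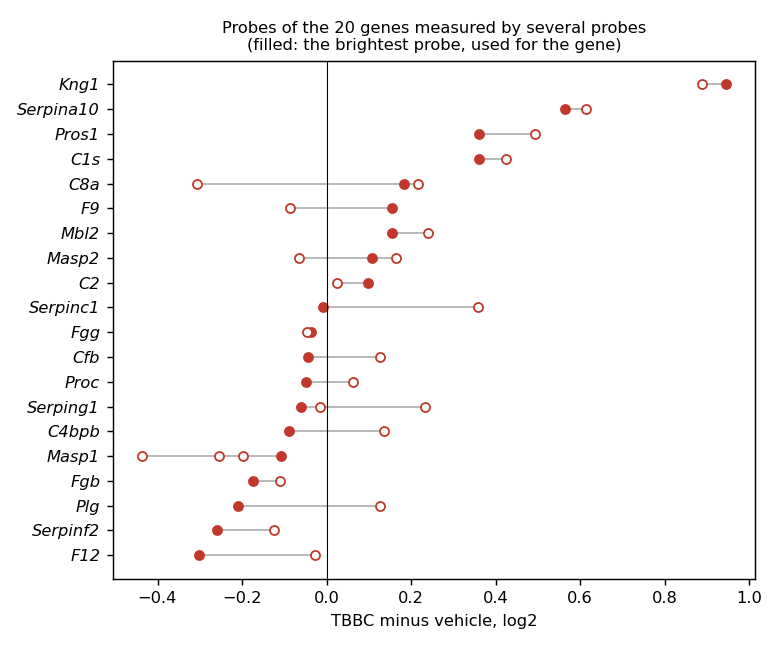
Difference of every probe, TBBC minus vehicle on the log2 scale, for the 20 cascade genes with several probes. Filled points are the brightest probe, which stands for the gene in the text, and open points are the others. Kng1, Serpina10, Pros1 and C1s have all their probes above 0, and the probes of C8a, Serpinc1 and Plg lie on both sides of it.

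Other genes of these pathways, 79 tested in 6 further lists, gave 2 that rose and 1 that fell with limma. That is 3.80% of the 79, near the 3.08% of all features. Of 19 other complement genes, C1rl, which encodes a protease resembling C1r, rose by 1.16 ± 0.21 (adjusted p = 0.0411). It read 0.22, -0.44 and 0.093 in TBBC livers, against -1.01, -1.19 and -1.41 in vehicle livers, with no overlap. The call held in 11 of 19 settings and was lost without any 1 array (adjusted p between 0.0532 and 0.114) or without the filter on dim probes (adjusted p = 0.0999). None of 19 other clotting and fibrinolysis genes passed, with 1 higher and 2 lower at an unadjusted p under 0.05. Their members with the highest signal were Hrg, which encodes histidine-rich glycoprotein (-0.13 ± 0.13), and Mcfd2, which encodes a cargo receptor subunit for factors V and VIII (0.029 ± 0.14). The widest differences of this list were A2m (-1.92 ± 0.54, limma adjusted p = 0.114, no overlap) and Procr (1.19 ± 0.61, limma adjusted p = 0.29, with overlap). A2m and Procr were chosen for mention after their values were seen.

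Protein C, protein S and factors II, VII, IX and X need vitamin K for gamma-carboxylation. Of 6 genes of the vitamin K cycle, Vkorc1l1, a paralogue of the vitamin K epoxide reductase, rose by 0.92 ± 0.11 (adjusted p = 0.0167). It read 0.81, 0.90 and 0.71 in TBBC livers, against -0.061, -0.16 and -0.11 in vehicle livers, and the call held in 14 of 19 settings. Leaving out TBBC 2, vehicle 1 or vehicle 2 ended it (adjusted p = 0.0698, 0.0682 and 0.0538), as did dropping the filter on dim probes (adjusted p = 0.0536). Vkorc1, the epoxide reductase itself, read 6.52, 6.60 and 6.56 in TBBC livers, against 7.12, 7.06 and 6.95 in vehicle livers (-0.48 ± 0.11, adjusted p = 0.0668). Ggcx, the carboxylase, differed by 0.038. Vkorc1 and Ggcx were chosen for mention after their values were seen.

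Of 10 other liver serpins, Serpina6, which encodes the glucocorticoid carrier transcortin, fell by 1.31 ± 0.20 (adjusted p = 0.0306). It read 3.51, 2.84 and 3.52 in TBBC livers, against 4.50, 4.63 and 4.66 in vehicle livers, with no overlap. The call held in 11 of 19 settings and ended with spike-in scaling (-1.09, adjusted p = 0.0554), without the filter on dim probes (adjusted p = 0.0757) and without any 1 array other than TBBC 2 (adjusted p between 0.0600 and 0.0982).

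Genes that control the cascades gave no call. Of 13 transcription factors of plasma protein genes, none passed with limma, and 1 was higher and 3 lower at an unadjusted p under 0.05. The 2 with the highest signal were Nr0b2, which encodes the corepressor SHP (-1.89 ± 0.42, adjusted p = 0.0705), and Cebpb, a C/EBP factor of the acute phase (-0.085 ± 0.25). Of 12 genes of interleukin 6 and interleukin 1 signalling none passed either, and 2 were higher at an unadjusted p under 0.05. Il6st, the shared signalling receptor chain gp130, differed by 0.18 ± 0.26, and Tnfrsf1a, a receptor for tumour necrosis factor, by 0.25 ± 0.11.

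Markers of other liver cells were set beside these values. Summed signals of 10 Kupffer cell markers were 99.9 to 216 times the 75th percentile in TBBC livers and 94.6 to 206 in vehicle livers. Replicate 3 was the highest rat of its group for each of the 10, in both groups. For example, C1qb read 5.07, 5.23 and 6.22 in TBBC livers, against 5.37, 5.20 and 6.17 in vehicle livers. C1qb and Clec4f led that list with differences of -0.070 and -0.020, and none of the 10 passed with limma, nor at an unadjusted p under 0.05. Sums over 7 endothelial markers were 41.8 to 48.0 in TBBC and 31.3 to 59.6 in vehicle, and over 10 stellate cell markers 27.1 to 35.3 in TBBC and 28.2 to 38.1 in vehicle, where Pdgfrb fell by 0.73. Of the 10 stellate cell markers 8 were negative and 2 positive, where 57.6% of all features were negative. Sums over 6 cholangiocyte markers did not overlap, at 2.89 to 4.41 in TBBC and 1.23 to 1.47 in vehicle, with Epcam rising by 1.83. Without Epcam the sums over the other 5 overlapped, at 0.54 to 0.78 in TBBC and 0.39 to 0.80 in vehicle, as did each of the 5 markers. Sums over 7 platelet markers were 1.68 to 2.63 in TBBC and 1.94 to 2.50 in vehicle, over 6 lymphocyte markers 2.48 to 3.93 in TBBC and 3.74 to 4.28 in vehicle, and over 4 neutrophil markers 1.85 to 8.20 in TBBC and 3.33 to 4.19 in vehicle. All 6 lymphocyte markers were negative (median -0.48), 3 of them without overlap, where 18.8% of all features were lower without overlap. None of the 6 passed with limma, and 2 were lower at an unadjusted p under 0.05, against 13.5% of all features. The 4 red cell markers summed to 184.9 to 248 in TBBC and 164 to 264 in vehicle. The part of these cells in the cascade values was not tested.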

How the data were processed

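Per the file headers, the authors extracted the scanned arrays with Agilent Feature Extraction 10.7.1.1 (10.7 per the submitters' processing notes), on a design that names the build rn4. The deposited values used here are background-subtracted spot intensity on a linear scale. The series' deposited table of values, used as an alternative, is the same intensity divided by its array's 75th percentile.

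Per array, 62976 spots held 1439 controls, which were left out with 25 probes flagged as outliers. Intensity was taken to log2 and the array's 75th percentile was subtracted. The filter on dim probes asked for a flag well above background in every array of one group or the other, and 37222 probes passed. Names came from unversioned accessions in a RefSeq gene table of GRCr8 and reached 45.8% of probes. A gene stands for its probe with the highest mean. limma 3.58.1 in R 4.3.3 (lmFit, eBayes, two-sided, no covariate) was fitted over 29326 features with Benjamini-Hochberg adjustment and a threshold of 0.05, after the code was tested on simulated data. The number of arrays limits the precision.

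The cascade genes and lists were chosen with earlier results of these data known. All 42 cascade genes could be named. Other lists were named by at most 4 genes past the threshold, and lists without such a gene by the 2 of highest signal. Marker lists were named by at most 2 of each kind. Names outside this rule are marked in the text. A reference annotation of the build rn4 and protein sequences were not used here. The scanner files used here hold median and not mean signals, so normexp was run on the medians. The 18 alternatives are in the closing section.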

Additional observations from a re-analysis of the deposited data

How the results depend on the processing

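The 37 cascade genes had 1 call as reported. The count was 0 with spike-in scaling, 0 without the filter on dim probes, 0 with the replicate block, 3 with a trended, robust prior variance (Serpind1, Serpina10, Serpina1) and 0 to 0 when each array was left out. With median centring the 1 call was Serpina10, and with normexp it was C9. The sign of the difference was the same in all 19 settings for 18 genes (11 positive, 7 negative). It varied for the other 19, none of which was called in any setting. These settings are not independent checks of a sign. The trended prior, every probe on its own, either other filter and the replicate block left the reported differences unchanged. The deposited value table moved them only slightly. Where the groups did not overlap, leaving out 1 array cannot turn a sign. The 902 calls over all features became 1589 with normexp, 194 without the filter, 211 with the replicate block and 120 to 358 without 1 array. The 3 calls among the other pathway genes became 8 with normexp, 0 without the filter, 6 with the trended prior, 7 with array weights and 0 to 2 without 1 array. The counts stayed within 1.5 times of those reported under quantile normalization, the deposited value table, the stricter filter, the mean of a gene's probes and every probe on its own. The cause of these changes was not tested. The replicate numbers were not taken as pairs. Over all features, deviations of rats with the same number correlated at 0.0035, -0.022 and 0.14. TBBC 1, 2 and 3 correlated best with vehicle 2, 1 and 3. Replicate 3 had the highest Kupffer cell markers in both groups, which correlations over all features need not show. Whether rats with the same number share a source of variation was not tested. With the replicate block Serpind1, C1rl, Serpina6 and Vkorc1l1 were not called (adjusted p = 0.125, 0.0792, 0.0756 and 0.0678). Without the filter 48957 features were tested. With 3 rats a group and 4 residual degrees of freedom, the 95% interval of all 37 cascade genes reached past 0.25 on the log2 scale on one side or the other, and 18 of the 37 lay within 0.5 either way.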

Other observations

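Serpina10 and Serpina1 belong to a run of clade A serpin genes, which in the gene order of GRCr8 holds 19 symbols beginning with Serpina on 1 chromosome. Of these, 9 were tested. Serpina10, at the edge of the run, was positive (0.56), and the other 8 were negative, where 57.6% of all features and 52.5% of named genes were negative. In order they were Serpina6 (-1.31), Serpina1 (-0.40), Serpina11 (-0.48), Serpina4 (-0.55), Serpina5 (-0.20), Serpina3m (-0.24), Serpina3c (-0.44) and Serpina3n (-0.28). Serpina6 alone passed as reported (limma adjusted p = 0.0306), and Serpina4 passed with normexp (adjusted p = 0.0418). Not all 19 settings can turn a sign. The negative sign held in all 19 settings for Serpina6, Serpina1, Serpina11, Serpina4, Serpina3c and Serpina3n. It turned in 1 setting for Serpina5 (0.022 with spike-in scaling) and in 2 for Serpina3m. The Serpina3 genes are close copies of each other, so their probes may not tell them apart. The run was chosen after its values were seen, and neighbouring genes are not independent.

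In the GRCr8 order 12 measured pairs of cascade genes had fewer than 10 genes between them. Of these, 2 had differences of 1 sign (F10 with F7, Fgg with Fgb) and 10 of opposite signs. Many of these signs rest on differences smaller than their standard errors, such as Fga (0.011 ± 0.20), C1r (-0.012 ± 0.16) and Cfb (-0.043 ± 0.13). With spike-in scaling all 9 genes of complement initiation, all 4 terminal genes and all 3 fibrinogen genes were positive. The same count for neighbouring genes outside the cascades was not made. Masp1 and Kng1, with 5 genes between them, gave -0.11 and 0.94. F10 and F7 gave -0.058 and -0.15, and C2 and Cfb gave 0.097 and -0.043.

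Nqo1, a quinone reductase of the vitamin K list chosen for mention after its values were seen, read 2.67, 3.51 and 2.86 in TBBC livers, against -1.33, 1.35 and 1.31 in vehicle livers (2.57 ± 0.72, adjusted p = 0.113). Vehicle 1 was far below the other vehicle rats.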
